A study of Mus musculus with 1 sample.

Results

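Hedgehog signalling was followed through 8 of its genes in single cells of the postnatal mouse testis. The set held the ligand gene Dhh, the receptor gene Ptch1, the transducer gene Smo, the antagonist gene Hhip, the transcription factor genes Gli1, Gli2 and Gli3, and the forkhead factor gene Foxf1. They were taken by symbol from the 27998 genes listed for the library, and all 8 held unique molecular identifiers (UMIs, each standing for 1 captured transcript), from 54 for Gli2 to 682 for Ptch1 in the cells kept. Their levels in Sertoli, stromal, myoid and germ cells of these same data were known when the set was chosen, so the levels below are a description and carry no test.

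The study screened transcription factors by siRNA in cultured spermatogonia. Among its later questions was how the loss of Zscan2, the gene of a zinc finger protein, affects spermatogonia. Cells came from the testes of 3 Wild-type C57BL/6 mice at postnatal day 8 and were pooled in equal numbers before 10x Genomics capture with v2 chemistry. THY1+ cells, a fraction rich in undifferentiated spermatogonia, were collected on magnetic beads, and some unselected testis cells were added back, so the share of each cell type was set by the preparation. The Zscan2 knock-out library was not analysed here. The pool is 1 library in which the 3 mice cannot be told apart, and cells are not replicates. Every interval below is therefore an exact 95% interval for counting error alone, and no p-value is given.

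The library held 970 barcodes with 2655 to 44915 UMIs each, and 920 cells were kept. Clustering without the Hedgehog genes, followed by naming from fixed marker lists, gave 255 Sertoli-like, 186 stromal-like, 94 peritubular myoid-like and 35 macrophage-like cells. It also gave 324 germ cells, namely 112 like spermatogonial stem cells (SSC-like), 78 progenitor-like and 134 differentiating-like spermatogonia. The SSC-like and progenitor-like cells together are called undifferentiated. A further 26 cells with T cell and pericyte markers stayed unnamed. The median depth was 20147 UMIs in undifferentiated cells, 10935.5 in differentiating-like cells, 8343 in Sertoli-like cells, 8370.5 in stromal-like cells and 7446 in myoid-like cells. Levels are therefore given as UMIs per 1000000 UMIs of the class (CPM), and shares of cells with a UMI are also given after thinning to 5000 UMIs per cell. Cells with fewer UMIs were left out of the thinned values, 93 of the 920. Among them were 35 of 134 differentiating-like, 20 of 255 Sertoli-like and 8 of 78 progenitor-like cells. Most naming markers were low outside their own class, which the naming itself favours and which is no independent support for the names. The 8 Sertoli markers reached a median of 1.14% of their Sertoli-like level in germ cells, the 7 stromal markers 0.728% of their stromal-like level, and the 6 germ cell markers 2.35% of their germ cell level in Sertoli-like cells. No marker was at 0 in these comparisons. Single markers were less confined. Taf4b was at 13.7% of its germ cell level in Sertoli-like cells and Igf1 at 189% of its stromal-like level in macrophage-like cells. Des was at 98.1% of its myoid-like level in stromal-like cells. The stromal-like and myoid-like classes were less distinct, since the 7 stromal markers had a median of 38.8% of their stromal-like level in myoid-like cells and Tcf21 was higher there, at 248%. No SSC-like or progenitor-like marker stood among the 10 leading genes of its own cluster, so the line between these 2 classes is the least secure of those drawn. Stra8, a marker of the differentiating list, had a UMI in 28 of 112 SSC-like cells (99.1 CPM) and 28 of 78 progenitor-like cells (110 CPM). The 2 differentiating-like clusters had 887 and 1000 CPM.

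Hedgehog ligands are secreted proteins that are read by the Patched receptor of neighbouring cells. Without ligand, Patched keeps Smoothened inactive and the GLI factors are processed toward repressors at the primary cilium, whereas ligand releases Smoothened and lets GLI proteins switch on target genes. Ptch1, Gli1 and Hhip are themselves common targets, and the PTCH1 and HHIP proteins bind ligand and restrain the signal. In the testis, DHH from Sertoli cells is known to act on peritubular and interstitial cells and to be needed for normal tubules and Leydig cells.

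The promoters of Dhh, Ptch1 and Hhip are shown because the ligand gene and these receptor and antagonist genes had opposite patterns among somatic cells. RefSeq windows of the 250 bases before the start (GRCm38.p6) matched 6 of the 8 genes, and Gli1 and Foxf1 did not match. Capitals mark the GC box, a 6-letter motif read on both strands (GGGCGG or CCGCCC). All sequences run 5′ to 3′ on the gene's own strand, which is the minus strand for the 3 genes.
Dhh, chr15:98898541-98898790: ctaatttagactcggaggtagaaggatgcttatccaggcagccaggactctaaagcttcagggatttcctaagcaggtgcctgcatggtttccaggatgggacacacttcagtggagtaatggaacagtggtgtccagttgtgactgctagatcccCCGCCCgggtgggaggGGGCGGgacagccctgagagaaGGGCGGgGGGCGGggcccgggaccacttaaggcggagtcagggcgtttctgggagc
Ptch1, chr13:63565736-63565985: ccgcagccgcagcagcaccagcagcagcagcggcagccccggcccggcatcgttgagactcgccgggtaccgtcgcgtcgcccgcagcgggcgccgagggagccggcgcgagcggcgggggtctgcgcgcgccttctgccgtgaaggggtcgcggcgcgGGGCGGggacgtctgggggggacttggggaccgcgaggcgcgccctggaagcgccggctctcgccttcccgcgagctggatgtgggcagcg
Hhip, chr8:80058009-80058258: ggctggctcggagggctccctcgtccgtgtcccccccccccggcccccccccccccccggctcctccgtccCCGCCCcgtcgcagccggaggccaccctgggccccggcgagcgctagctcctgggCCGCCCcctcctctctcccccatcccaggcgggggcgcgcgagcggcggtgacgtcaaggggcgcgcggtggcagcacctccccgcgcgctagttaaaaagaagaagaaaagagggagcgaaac
The Ptch1 window lies inside the span annotated for the gene, because the RefSeq start is downstream of the first annotated one. The Dhh window held 4 GC boxes, the Hhip window 2 and the Ptch1 window 1. A GC box was present in 5 of the 6 matched windows and in 32.7% of all 32851 RefSeq windows of this length. The GLI consensus GACCACCCA, read on both strands, was in none of the 6 and in 0.225% of all windows. Its absence here says only that these letters are not in these stretches.

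Dhh, the gene of the secreted ligand (ENSMUSG00000023000, minus strand, chr15:98891152-98898540 in GRCm38), was a Sertoli-like transcript. Its level was 216 CPM in Sertoli-like cells (197 to 235, from 495 UMIs) and 3.05 CPM or lower in each of the other 6 named classes. Sertoli-like cells held 97.2% of the 509 Dhh UMIs in all cells kept. They exceeded the remaining cells by 133-fold (78.4 to 245). Dhh was the only one of the 8 genes to stand at least 4-fold higher in Sertoli-like cells than in all other cells, where 6.74% of 12989 genes did so. Gli1, Gli2, Gli3, Hhip and Foxf1 were at least 4-fold lower there, 5 of 8 against 17.9%. These 5 genes had 2, 0, 5, 1 and 1 UMIs in Sertoli-like cells. They reached the minimum of 20 UMIs for this comparison through the other cells, as Dhh did through Sertoli-like cells, so both counts are descriptions. The Dhh fold depended on few UMIs outside the Sertoli-like class, 14 in all. When the UMIs were divided at random into 2 sets, 1 for clustering and 1 for levels, the log2 ratio went from 7.05 to 7.96 (6.58 to 9.84).

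A Dhh UMI was found in 203 of the 255 Sertoli-like cells (79.6%, 74.1 to 84.4), and in 59.1% after thinning. Most carried few copies: 68 cells had 1 UMI, 57 had 2, and the highest cell had 11. Germ cells, taken as the background for Dhh, had a UMI in 2.16% of cells at a higher depth (median 18216.5 against 8343 UMIs), and in 1.08% after thinning. The 3 Sertoli-like clusters all carried the ligand, at 234 CPM (207 to 264), 184 CPM (153 to 218) and 219 CPM (178 to 266). Rhebl1, a gene that overlaps Dhh on the same strand, had another pattern, with 56.7 CPM in undifferentiated cells and 7.84 CPM in Sertoli-like cells. The other ligand genes Shh and Ihh had 2 UMIs each in the whole set of kept cells.

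**Figure D1:**
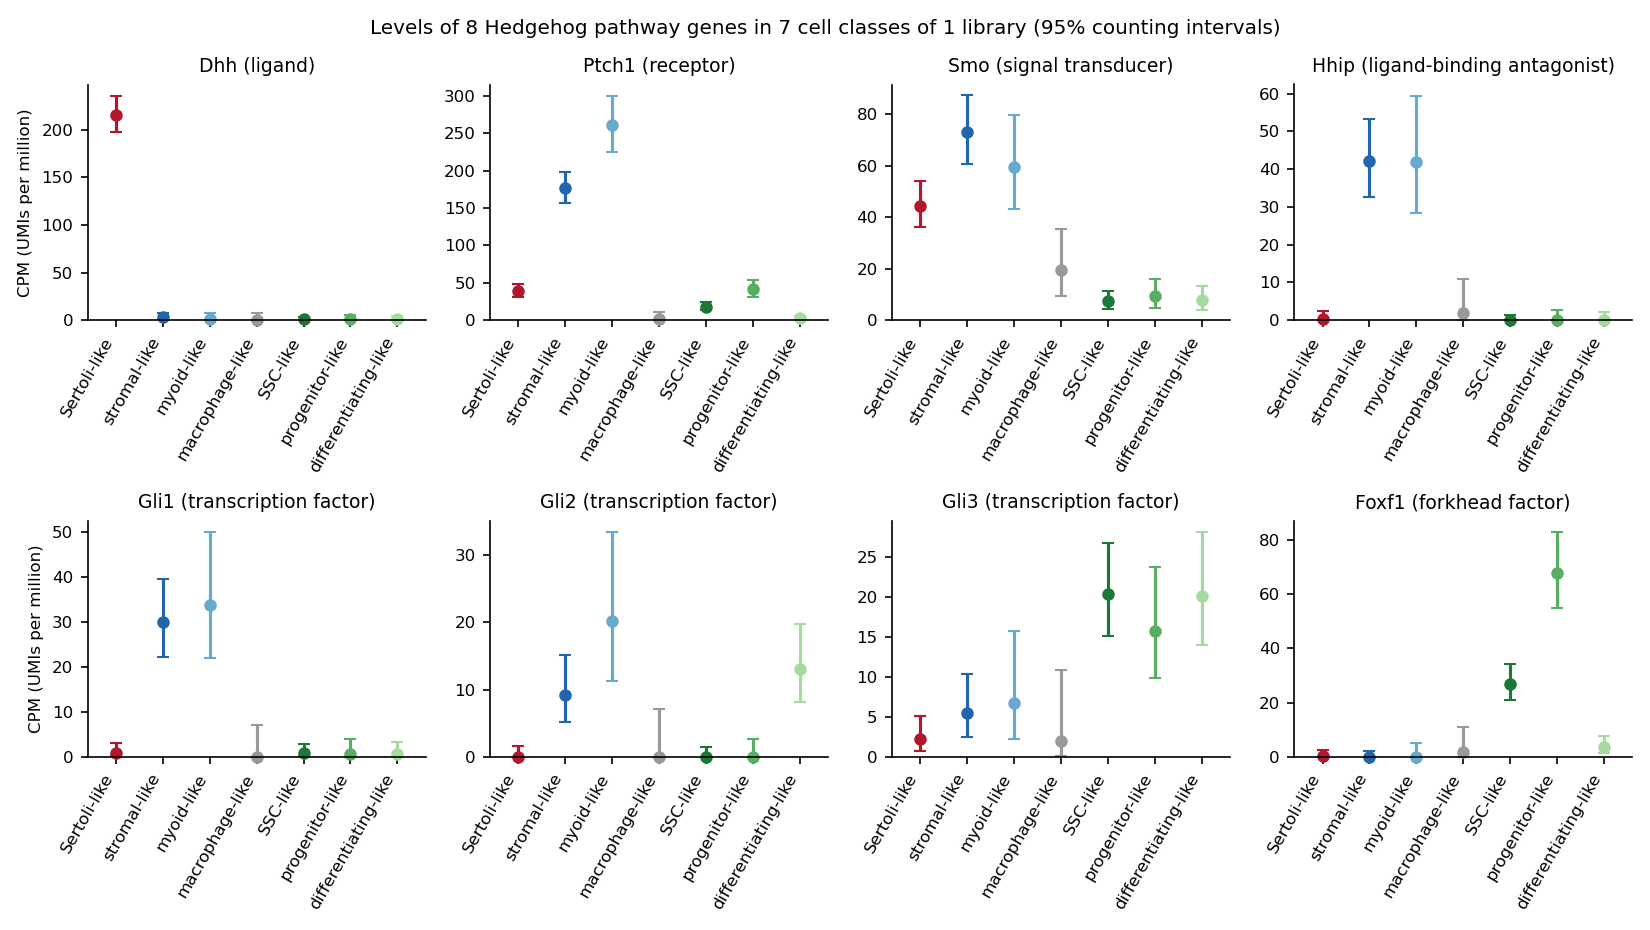
Level of each of the 8 Hedgehog pathway genes (vertical axes, CPM, each starting at 0 with its own scale) in the 7 named classes of the library. Points are summed UMIs per 1000000 and bars are exact 95% Poisson intervals for counting error. Dhh stands at 216 CPM in Sertoli-like cells, Ptch1, Hhip and Gli1 are highest in stromal-like and myoid-like cells, and Foxf1 is highest in progenitor-like cells at 67.7 CPM.

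Ptch1, the gene of the main Hedgehog receptor (ENSMUSG00000021466, minus strand, chr13:63508328-63573598), was highest outside the tubule and present at lower levels inside it. Myoid-like cells, the contractile layer that wraps the tubule, had 261 CPM (225 to 300, 193 UMIs) and stromal-like cells of the interstitium 177 CPM (157 to 198, 290 UMIs). Progenitor-like cells followed with 41.3 CPM (31.4 to 53.4, 58 UMIs), Sertoli-like cells with 39.2 CPM (31.5 to 48.2, 90 UMIs) and SSC-like cells with 18.3 CPM (13.3 to 24.5, 45 UMIs). Differentiating-like cells had 2.37 CPM from 4 UMIs and macrophage-like cells 1.94 CPM from 1 UMI.

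In this order, myoid-like cells stood above stromal-like cells by 0.56 on the log2 scale (0.29 to 0.83), and stromal-like cells above progenitor-like cells by 2.1 (1.68 to 2.53). The progenitor-like and Sertoli-like levels did not differ beyond counting error (0.08, -0.43 to 0.57), and both SSC-like and differentiating-like cells were lower than the class above them. The lowest levels, in differentiating-like and macrophage-like cells, could not be separated. Stromal-like cells exceeded Sertoli-like cells by 2.17 on the log2 scale (1.83 to 2.53), a 4.51-fold ratio. With a limit of 5% in place of 10% mitochondrial UMIs, only 54 Sertoli-like cells remained, their Ptch1 level was 24.2 CPM and the log2 ratio was 2.81 (1.95 to 3.83). The share of cells with a Ptch1 UMI was 75.5% in myoid-like, 64.5% in stromal-like and 28.6% in Sertoli-like cells. After thinning it was 63.3%, 47.1% and 18.3%. In macrophage-like cells, which served as background, 1 of 35 cells had a Ptch1 UMI (2.86%, 0.07 to 14.9), at a median depth of 13010 UMIs.

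The Sertoli-like level of Ptch1 was 19.3% of that in stromal-like and myoid-like cells together (15.5 to 23.8). The 7 stromal markers reached 0.359 to 1.5% of their stromal-like level in the same Sertoli-like cells, and Hhip and Gli1, which have the same main source as Ptch1, reached 1.04% and 2.80%. The 7 myoid markers reached 0 to 10.2% of their myoid-like level there, with Mylk the highest and 1 marker at 0. The Ptch1 share lay above each of these values at the 10% limit. It was not computed at the 5% limit, and the part of RNA from other cells in it was not tested. Copies per cell ranged up to 9 UMIs in stromal-like and 8 in myoid-like cells, and 25 of 186 stromal-like and 21 of 94 myoid-like cells had 4 or more.

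Smo, the gene of the transducer that Patched restrains (ENSMUSG00000001761, plus strand, chr6:29735503-29761365), was spread over all somatic classes. It was at 73.1 CPM in stromal-like cells (60.6 to 87.4), 59.4 CPM in myoid-like cells (43.2 to 79.8), 44.4 CPM in Sertoli-like cells (36.2 to 53.9) and 19.4 CPM in macrophage-like cells (9.29 to 35.6). The 3 germ cell classes lay between 7.31 and 9.27 CPM and overlapped one another. Neighbouring classes in this order differed beyond their intervals only between Sertoli-like and macrophage-like cells, by 1.2 on the log2 scale (0.26 to 2.30). Germ cells as a whole had 44 Smo UMIs, which is 11.5% of the level in stromal-like and myoid-like cells (8.36 to 15.4). A Smo UMI was seen in 46.2% of stromal-like, 33.0% of myoid-like, 30.6% of Sertoli-like and 12.0% of germ cells, and after thinning in 26.2%, 22.2%, 18.7% and 2.87%.

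Hhip, the gene of a surface protein that binds ligand and keeps it from Patched (ENSMUSG00000064325, minus strand, chr8:79965851-80058006), was found almost wholly in the 2 classes outside the tubule. Stromal-like cells had 42.0 CPM (32.7 to 53.2, 69 UMIs) and myoid-like cells 41.9 CPM (28.4 to 59.4, 31 UMIs), levels that did not differ beyond counting error (log2 difference -0.01, -0.67 to 0.63). These classes held 98.0% of the 102 Hhip UMIs. Sertoli-like and macrophage-like cells had 1 UMI each. The 324 germ cells had none, for which the exact upper limit is 0.664 CPM and the bound at 3 counts is 0.540 CPM. The stromal-like and myoid-like level was 77.7 times that bound. Against Sertoli-like cells the ratio was 96.4 with a wide interval, 4.08 to 11.91 on the log2 scale.

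Gli1, the GLI factor gene whose own transcription follows pathway activity (ENSMUSG00000025407, minus strand, chr10:127329882-127341974), had the same distribution at lower counts. It was at 33.8 CPM in myoid-like cells (21.8 to 49.8, 25 UMIs) and 29.8 CPM in stromal-like cells (22.1 to 39.5, 49 UMIs), again without a difference beyond counting error. Only 2 UMIs were found in Sertoli-like cells and 4 in germ cells. The 2 classes outside the tubule held 92.5% of the 80 Gli1 UMIs. They exceeded Sertoli-like cells by 5.16 on the log2 scale (3.25 to 8.23). Arhgap9, which overlaps Gli1 on the opposite strand, had no UMI in the 2 classes outside the tubule.

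Set against Sertoli-like cells, Gli1, Hhip, Ptch1 and Gli2 were at least 4-fold higher in stromal-like and myoid-like cells, 4 of the 6 genes of the set with 20 or more UMIs in these cells. The same held for 9.41% of 10575 genes. Gli1, Hhip and Gli2 reached that minimum through stromal-like and myoid-like cells, with 2, 1 and 0 UMIs in Sertoli-like cells. Dhh was the single gene of the set at least 4-fold lower, as were 9.67% of genes. Compared with germ cells, Smo, Gli1, Hhip and Ptch1 were at least 4-fold higher, 4 of 7 genes against 13.4% of 11992. Foxf1 was at least 4-fold lower, against 17.3%. Gli1 and Hhip had 4 and 0 UMIs in germ cells and reached the minimum through stromal-like and myoid-like cells. Foxf1 had 0 UMIs in those 2 classes and reached it through germ cells.

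Within stromal-like cells, those with a Gli1 UMI were compared with those without, a division also chosen after values were seen. The 43 cells with Gli1 had 244 CPM of Ptch1 and the other 143 had 154 CPM, a log2 difference of 0.67 (0.31 to 1.02), while Hhip differed by 0.55 (-0.24 to 1.30). Median depth was 9565 against 7892 UMIs. In myoid-like cells the same split gave 267 and 259 CPM of Ptch1, a log2 difference of 0.05 (-0.45 to 0.52). Cells with a Hhip UMI had more Ptch1 than those without in both classes, by 0.45 on the log2 scale in stromal-like cells (0.08 to 0.81) and 0.51 in myoid-like cells (0.06 to 0.95). The presence of a Gli1 or Hhip UMI was common to about the same share of both classes, 23.1% and 24.7% of stromal-like cells and 23.4% and 23.4% of myoid-like cells.

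Gli2 and Gli3, whose products carry most of the activator and repressor function of the pathway, had patterns unlike Gli1. Gli2 (ENSMUSG00000048402, minus strand, chr1:118834132-119053619) had 15 UMIs in myoid-like cells (20.3 CPM, 11.3 to 33.4), 15 in stromal-like cells (9.14 CPM, 5.11 to 15.1) and 22 in differentiating-like spermatogonia (13.0 CPM, 8.15 to 19.7). It had none in Sertoli-like, macrophage-like, SSC-like or progenitor-like cells. For undifferentiated cells the 0 counts allow up to 0.776 CPM, and the differentiating-like level was 16.8 times that bound. Myoid-like cells were above stromal-like cells by 1.15 on the log2 scale, with an interval from 0.01 to 2.28 that nearly reached 0. In the comparison of these 2 classes, Gli2 was the 1 gene of 5 tested past 2-fold, against 6.9% of 8291 genes higher in myoid-like cells.

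Gli3 (ENSMUSG00000021318, plus strand, chr13:15463235-15730026) was mainly a germ cell transcript in this library, with 84.1% of its 126 UMIs in germ cells. It was at 20.3 CPM in SSC-like (15.1 to 26.8), 20.1 CPM in differentiating-like (13.9 to 28.1) and 15.7 CPM in progenitor-like cells (9.83 to 23.7), levels that overlapped. Myoid-like cells had 6.75 CPM from 5 UMIs, stromal-like cells 5.48 CPM from 9 and Sertoli-like cells 2.18 CPM from 5. Germ cells were above stromal-like and myoid-like cells, which stood lower by -1.70 on the log2 scale (-2.62 to -0.89). Set against germ cells, Sertoli-like cells had Gli2, Foxf1 and Gli3 at least 4-fold lower, 3 of 6 genes against 14.2% of 11729 (Gli2 by its 0 UMIs, for which the bound is 3.03-fold), and Smo and Dhh at least 4-fold higher, against 12.9%. Foxf1 and Gli3 had 1 and 5 UMIs in Sertoli-like cells, and Dhh had 7 in germ cells. Like Gli2, they reached the minimum of 20 UMIs through the group where they were high. A Gli3 UMI was found in 25.6% of germ cells, and in 8.60% after thinning. The thinned share was 3.05% in stromal-like and myoid-like cells and 1.28% in Sertoli-like cells. Germ cells held 5555070 of the 10914002 UMIs of all genes in the cells kept. Among the annotated transcripts of the 8 genes, stretches of 30 bases were shared by Dhh and Smo alone, which had 3 in common.

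Foxf1, the gene of a forkhead factor known as a Hedgehog target in lung and gut mesenchyme (ENSMUSG00000042812, plus strand, chr8:121084386-121088144), was not detected in the 2 classes that held Ptch1, Hhip and Gli1. None of the 186 stromal-like and 94 myoid-like cells had a UMI, which allows up to 1.26 CPM, and Sertoli-like and macrophage-like cells had 1 each. Undifferentiated spermatogonia held 161 of the 169 UMIs (95.3%). Their level of 41.7 CPM (35.5 to 48.6) was 33.1 times the bound for the 2 classes outside the tubule. The level was 67.7 CPM in progenitor-like cells (54.8 to 82.8, 95 UMIs), 26.8 CPM in SSC-like cells (20.7 to 34.1, 66 UMIs) and 3.55 CPM in differentiating-like cells (1.30 to 7.72, 6 UMIs). Each of these steps was larger than its counting error. Gm20388, which overlaps Foxf1 on the same strand, was listed with 0 UMIs in every class. Ptch1, Smo and Gli3 are overlapped on the same strand by A930032L01Rik, Gm13717 and Gm48343, whose levels were not computed.

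A Foxf1 UMI was found in 41 of 78 progenitor-like cells (52.6%, 40.9 to 64.0), 35 of 112 SSC-like cells (31.3%, 22.8 to 40.7) and 6 of 134 differentiating-like cells (4.48%, 1.66 to 9.49). After thinning to 5000 UMIs, 21 of 70 progenitor-like cells still had one, and the shares were 12.7% and 3.03% in the other two classes. The background in stromal-like cells was 0 of 186, at a median of 8370.5 UMIs, and 0 of 172 after thinning. Copies were unevenly spread: 10 of 78 progenitor-like cells had 4 or more UMIs and 1 had 7, while no differentiating-like cell had more than 1.

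**Figure D2:**
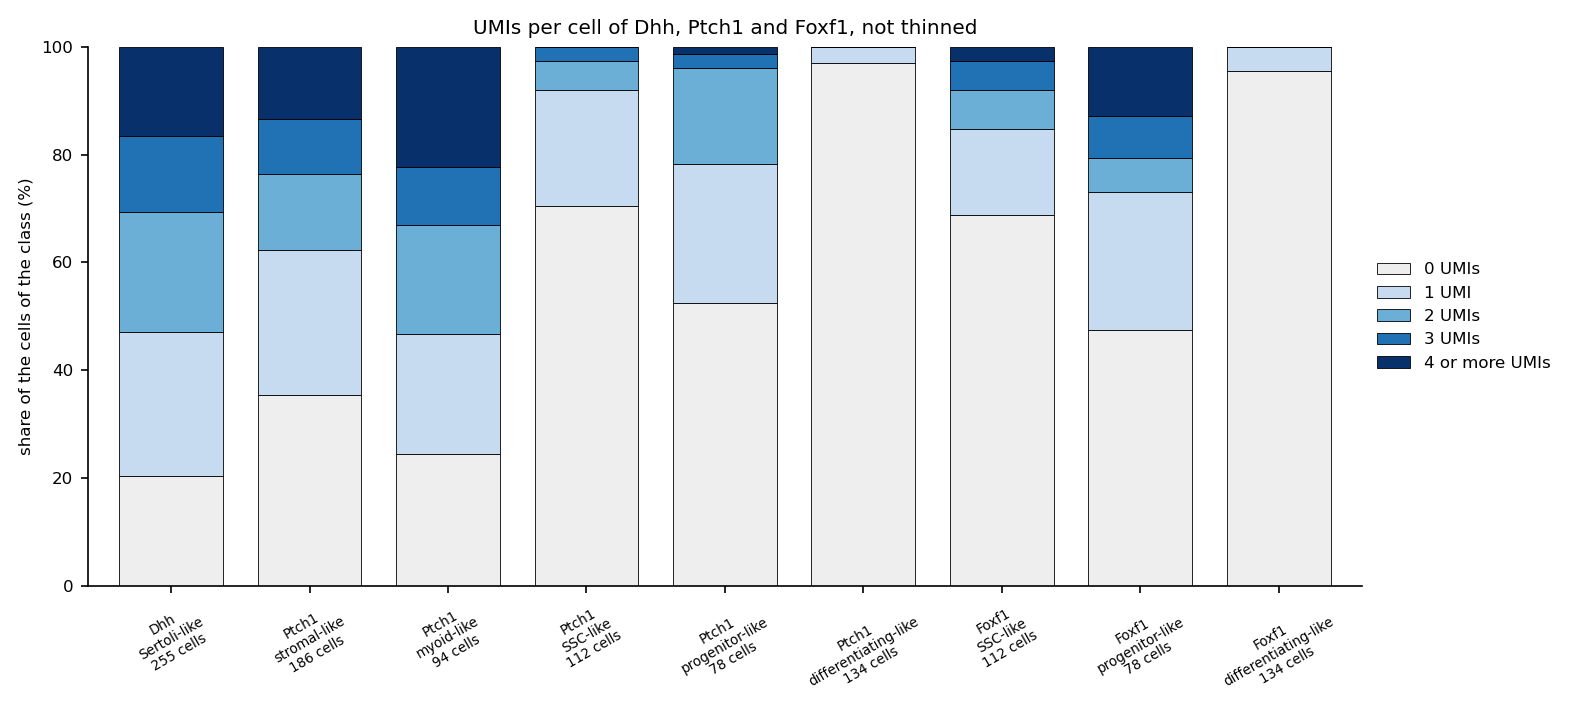
Share of cells (vertical axis, percent of the class) by number of UMIs of Dhh, Ptch1 or Foxf1 in the class named under each bar, before thinning. Median UMIs per cell differed between the classes shown, from 7446 in myoid-like to 22354.5 in SSC-like cells, so bars of different classes do not compare at equal depth. Ptch1 reached 4 or more UMIs in 25 of 186 stromal-like cells, and Foxf1 did so in 10 of 78 progenitor-like cells.

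Ptch1 shared the germ cell pattern of Foxf1. Undifferentiated cells had 103 Ptch1 UMIs (26.7 CPM, 21.8 to 32.3) and differentiating-like cells 4, a log2 difference of 3.49 (2.09 to 5.40). For Foxf1 it was 3.55 (2.40 to 5.02). Both were at least 2-fold higher in undifferentiated cells, 2 of 5 genes of the set, against 10.1% of 10519 genes. Gli2 was at least 2-fold lower, against 8.22%. Foxf1 and Ptch1 had 6 and 4 UMIs in differentiating-like cells, and Gli2 had 0 in undifferentiated cells. These 3 genes reached the minimum of 20 UMIs through the group where they were high. The pattern of Foxf1 and Ptch1 was known when the set was chosen, so the count is a description and no test. Smo and Gli3 differed by 0.06 (-0.91 to 1.12) and -0.11 (-0.72 to 0.52) on the log2 scale, and Hhip had no UMI in either class. The Ptch1 difference was 2.22 (0.79 to 4.15) with clusters and levels from separate sets of UMIs, and the Foxf1 difference was 2.56 as a mean over cells and 2.91 (1.26 to 5.25) after thinning. The differentiating-like class joined 2 clusters, of 102 and 32 cells, at median depths of 8736 and 12208 UMIs. They had 3 and 1 UMIs of Ptch1 (2.33 and 2.46 CPM) and 6 and 0 of Foxf1. Gli2 had 13 and 9 UMIs there (10.1 and 22.2 CPM).

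Among undifferentiated cells, progenitor-like cells were higher than SSC-like cells in both genes, by 1.34 (0.87 to 1.81) for Foxf1 and 1.18 (0.59 to 1.77) for Ptch1 on the log2 scale. At least 2-fold higher were 2 of 4 genes of the set, against 3.15% of 9549 genes, and none was 2-fold lower, against 5.85%. The levels of these 2 genes in undifferentiated cells were known when the set was chosen, so this count is also no test. Thinning to 5000 UMIs per cell, done as a single random draw, took the Ptch1 difference to 0.39 (-0.70 to 1.46). It was not detectable in that draw, whereas Foxf1 kept a difference of 1.01 (0.05 to 1.98). The draw left a Ptch1 UMI in 15 of 110 SSC-like and 13 of 70 progenitor-like cells, and its variation between draws was not tested. Gli3 did not differ beyond its interval (-0.37, -1.17 to 0.38).

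Undifferentiated cells were also divided by a marker UMI in place of the cluster, a division chosen after values were seen. Neurog3 marks progenitors poised to differentiate, and Lhx1 is a stem cell gene that responds to GDNF. Both were also in the lists that named the clusters, so this division is not independent of them. The 34 cells with a Neurog3 UMI had 93.5 CPM of Foxf1 and the other 156 had 30.1 CPM, a log2 difference of 1.64 (1.16 to 2.1). For Ptch1 the levels were 52.4 and 20.9 CPM (1.33, 0.71 to 1.93). The 59 cells with an Lhx1 UMI were lower than the other 131, by -0.82 (-1.39 to -0.29) for Foxf1 and -1.09 (-1.86 to -0.39) for Ptch1. Median depth was close between cells with and without Neurog3 (20430 and 20070.5 UMIs) and less so for Lhx1 (24042 and 19643).

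**Figure D3:**
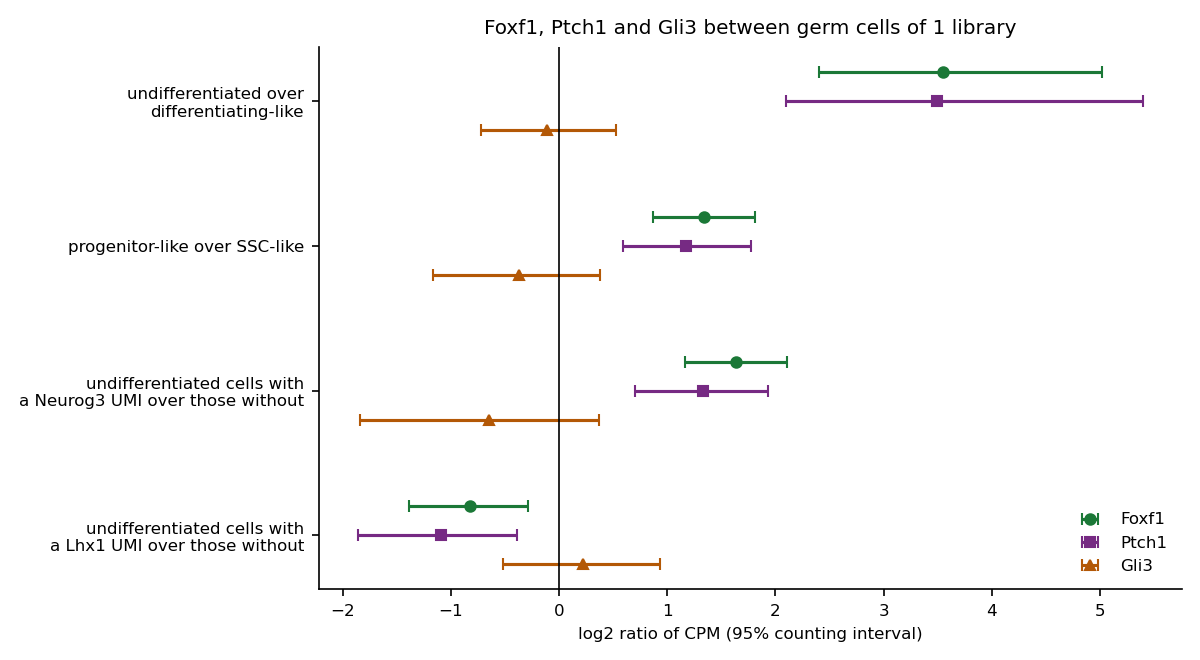
Log2 ratio of CPM (horizontal axis) of Foxf1, Ptch1 and Gli3 for 4 divisions of the germ cells (vertical axis), with exact 95% counting intervals; a value of 0 means equal levels. Foxf1 and Ptch1 lie to the right of 0 in the first 3 divisions and to the left in cells with an Lhx1 UMI, while every Gli3 interval holds 0.

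Both transcripts were found in some of the same cells. A Foxf1 UMI was found in 35 of 70 undifferentiated cells with a Ptch1 UMI (interval 37.8 to 62.2%) and in 41 of 120 without (34.2%, 25.8 to 43.4), at median depths of 20839 and 19818.5 UMIs. By level, Foxf1 was higher by 0.56 on the log2 scale in cells with Ptch1 (0.10 to 1.03), whereas Ptch1 in cells with Foxf1 differed by 0.49 (-0.10 to 1.08). Progenitor-like cells, which were higher in both genes, made up 37 of the 70 cells with Ptch1 and 41 of the 120 without. The difference within a single class was not tested.

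The Ptch1 level in undifferentiated cells was 13.1% of that in stromal-like and myoid-like cells together (10.7 to 15.9), and 20.4% in progenitor-like cells (15.5 to 26.4). In the same progenitor-like cells the 7 stromal markers reached 0 to 2.06% of their stromal-like level, with 1 marker at 0 and a summed level of 143 CPM against 11671 CPM in stromal-like cells. The 7 myoid markers reached 0 to 2.64%, also with 1 at 0, and a summed level of 26.4 CPM against 10413 CPM in myoid-like cells. Hhip had no UMI in undifferentiated cells and Gli1 had 3. Differentiating-like cells had 1.17% of the Ptch1 level of stromal-like and myoid-like cells. The part of RNA from other cells in the germ cell Ptch1 level was not tested.

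Other genes of the pathway were followed in a list of 38, of which 37 were listed for the library and 30 had 20 or more UMIs. Cdon and Gas1, co-receptors that help ligand bind Patched, were lower in myoid-like cells by -3.14 (-5.05 to -1.72) and -2.64 (-4.13 to -1.46) on the log2 scale, with 47.5 and 50.6 CPM in stromal-like cells. Boc, a co-receptor related to Cdon, was at 29.8 CPM in stromal-like and 39.2 CPM in myoid-like cells and did not differ beyond its interval (0.39, -0.32 to 1.08). In this comparison 2 of 18 list genes, Cdon and Gas1, were at least 2-fold lower, a share close to the 10.1% of all genes, and 1 of 18, Iqce, was at least 2-fold higher, against 6.9%. Cdon and Gas1 had 4 and 6 UMIs in myoid-like cells and reached the minimum of 20 UMIs through stromal-like cells.

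In stromal-like and myoid-like cells together, 5 of 24 list genes were at least 4-fold higher than in Sertoli-like cells, against 9.41% of all genes: the co-receptor genes Cdon, Gas1 and Boc, the nuclear receptor gene Nr2f2 and the survival gene Bcl2. Mycn was at least 4-fold lower, 1 of 24 against 9.67%. The median log2 ratio was 0.36 over the list and -0.36 over all genes tested. Nr2f2 was the most abundant of these, at 321 CPM in stromal-like and 439 CPM in myoid-like cells and 1.74 CPM in Sertoli-like cells. Against germ cells, 6 of 29 were at least 4-fold higher (Gas1, Boc, Nr2f2, Bcl2 and the ciliary genes Evc and Evc2), against 13.4% of all genes. A further 5 were at least 4-fold lower (Kif7, Ccnd1, Arrb2, Mycn and Scube3), a share close to the 17.3% of all genes, with medians of 0.18 over the list and -0.44 over all genes.

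Ligand release and transduction genes differed in how far they spread over the classes. All 27 UMIs of the ligand release gene Scube3 were in germ cells, as were 44 of 51 for the transduction gene Kif7. Of the UMIs of all genes, germ cells held 5555070 of 10914002. Disp1, whose product frees lipid-bearing ligand from the cell surface, was at 13.1 CPM in Sertoli-like cells, the source of Dhh, and at 18.7 CPM in SSC-like cells. Hhat, the gene of the enzyme that adds palmitate to the ligand, had 40 UMIs in all and 6 in Sertoli-like cells. Sufu, the gene of a GLI inhibitor, lay between 4.06 and 11.6 CPM in every named class, and Csnk1a1 and Gsk3b, for kinases that mark GLI proteins, were at 159 to 250 and 72.1 to 107 CPM. Among germ cells, 1 of 19 list genes, the cyclin gene Ccnd2, was at least 2-fold higher in undifferentiated than in differentiating-like cells, against 10.1% of all genes, and none was lower, against 8.22%. Between progenitor-like and SSC-like cells no list gene of 19 passed 2-fold in either direction, where 3.15% of all genes were higher and 5.85% lower, and the median log2 ratio was -0.02 over the list and -0.06 over all genes. Foxf2 and Disp2 had 0 UMIs, and Foxl1, a relative of Foxf1, had 7, all in undifferentiated cells.

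**Figure D4:**
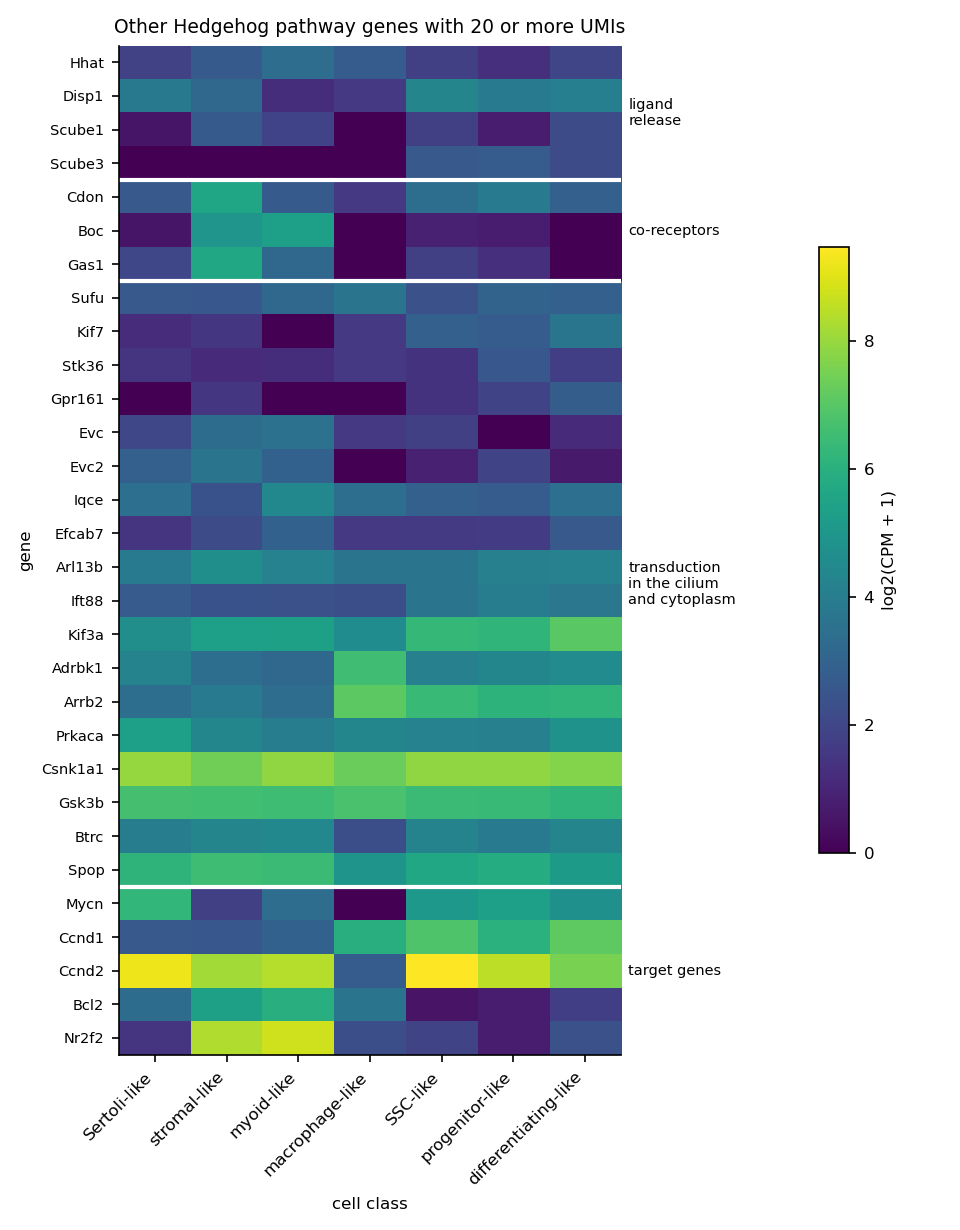
Level of the 30 other Hedgehog pathway genes with 20 or more UMIs (rows, grouped by role) in the 7 named classes (columns), as log2(CPM + 1) on the colour scale. The rows of Boc, Gas1, Bcl2 and Nr2f2 are brightest in stromal-like or myoid-like cells, while Csnk1a1 and Gsk3b are bright in every class.

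No Leydig class was formed, and few stromal-like cells bore Leydig markers. Counting UMIs of Star, Cyp11a1, Cyp17a1, Hsd3b1, Insl3 and Lhcgr, 9 of the 186 stromal-like cells had 10 or more, a limit set after values were seen. In these cells Ptch1 was at 72.5 CPM from 9 UMIs, against 185 CPM in the other 177 cells, a log2 difference of -1.35 (-2.50 to -0.41). Cdon went the other way, with 226 against 32.9 CPM (2.78, 2.05 to 3.47). Gli1 and Hhip had 1 and 2 UMIs in the 9 cells, too few to place them. Dlk1, a marker of stromal progenitors, was lower by -4.80 (-5.42 to -4.25).

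For each gene of the set with at least 100 UMIs, the 3 genes with the most similar profile were sought among 9073 genes, by Pearson's r of log2(CPM + 10) over the 7 named classes. The classes share 1 library and differ in depth, so these values describe likeness alone. Dhh was closest to Rhox8 (0.999), Wt1 (0.999) and Islr2 (0.999), of which Rhox8 and Wt1 were Sertoli markers in the naming lists. Hhip was closest to 2600014E21Rik (0.999), Rhoj (0.999) and Ddr2 (0.998), and Foxf1 to Fbxo41 (0.984), Gyltl1b (0.982) and Glis3 (0.974). Smo lay nearest Tuba1a (0.995), Dtx4 (0.993) and Cxx1b (0.991), and Gli3 nearest Ppm1d (0.992), Sod1 (0.989) and Gtf2h2 (0.988). Ptch1, with its mixed profile of somatic and germ cell levels, was nearest Rps27rt (0.992), Rpl7 (0.985) and Lamb1 (0.981). Gli1 and Gli2 had too few UMIs for this comparison.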

How the data were processed

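Single-cell RNA sequencing was analysed for 1 Wild-type library. Per the labels, the authors used Cell Ranger 2.1.0 with the mouse mm10 build, and the deposited values are UMI counts per gene and barcode, not normalized. Read totals were not given in the sources used here.

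A barcode was dropped if it held fewer than 500 genes, if 10% or more of its UMIs were mitochondrial, or if scrublet, run through scanpy 1.11.5 at an expected rate of 0.01, marked it as a doublet (4 of 970). In Seurat 5.3.0 (R 4.3.3), variable genes by mean.var.plot, without the Hedgehog genes, 14 principal components and a resolution of 0.5 gave the clusters, and germ cells were clustered again. A cluster took the class with the highest mean log-normalized marker level. It stayed unnamed with fewer than 3 markers found in 10% of its cells, or when another class had more markers among its top 10 genes than its own class, or equally many above 0. A cluster of far lower median depth than all cells clustered also stayed unnamed if none of its own markers was among its top 10 genes. The SSC-like and progenitor-like clusters, with no marker of any germ cell subclass there, kept their name. The top 10 genes were ranked by mean log-normalized difference. This choice was made after 1 hemoglobin-rich barcode had left a germ cell cluster unnamed under a rank by fold.

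CPM intervals are exact Poisson, ratios exact conditional binomial and shares Clopper-Pearson, at 95%, for counting error only. A count of 0 was bounded at 3 counts. Folds against such a bound leave out the counting error of the higher level. The background share covers genes with 20 or more UMIs in both groups together. Any gene, of the set or not, could reach this minimum through the group where it was high, so the counts are descriptions. A gene with 0 UMIs in 1 group counted as past the fold. On simulated counts, the ratio intervals were tested for coverage. These counts were drawn from the Poisson model that the intervals assume, so the check cannot speak to variation between cells or mice. The 8 genes, the lists and the divisions of cells by a marker UMI were chosen with earlier results of these data known. The genes named are the 8, the list of other pathway genes and the 3 genes most like each, with overlapping genes and markers where a value rests on them, which were chosen after values were seen. A gene that was part of the pathway list is not reported here and was left out of the list's counts. Promoters are from RefSeq, gene positions from GENCODE vM21, both on GRCm38, the assembly of mm10. The 16 alternatives cover filters, variable genes, principal components, resolution, a count split, thinning, the mean over cells, hemoglobin-rich cells and the choice of germ cells.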

Additional observations from a re-analysis of the deposited data

Results flagged for a closer look

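The 50 barcodes left out by the filters, which enter no comparison, held UMIs of all 8 genes, and above the limit of 3 counts for 4 of them. There were 23 Dhh UMIs in 12 barcodes, 15 Ptch1 UMIs in 6, 8 Smo UMIs in 8 and 8 Foxf1 UMIs in 6. Of the 50, 36 were at or over the mitochondrial limit, 10 had too few genes and 4 were called doublets.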

How the results depend on the processing

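The 8 ratios kept their direction under every alternative that gave a value, and none of the recomputed ratios reversed: 113 stayed within the reported interval and 3 did not. Over the alternatives the log2 ratio ranged from 6.55 to 7.96 for Dhh in Sertoli-like over other cells, 1.92 to 2.81 for Ptch1 in stromal-like over Sertoli-like cells, 4.89 to 5.25 for Gli1 and 5.45 to 6.74 for Hhip in stromal-like and myoid-like over Sertoli-like cells. In undifferentiated over differentiating cells it ranged from 2.22 to 3.78 for Ptch1 and 2.56 to 4.12 for Foxf1, and in progenitor-like over SSC-like cells from 0.39 to 1.41 for Ptch1 and 0.90 to 1.43 for Foxf1. The values furthest from those reported were 2.81 for Ptch1 in stromal-like cells when mitochondrial UMIs were held under 5%, 7.96 for Dhh with the count split and 0.39 for Ptch1 in progenitor-like cells after thinning to 5000 UMIs. That limit left 54 Sertoli-like cells, and thinning leaves fewer UMIs and fewer cells. Counts of genes past the fold moved by over 1.5 times in 13 cases and by less in 219. With 5% mitochondrial UMIs they were 535 (higher in Sertoli-like than in other cells), 629 (lower in stromal-like and myoid-like than in Sertoli-like cells), 969 (lower than in germ cells), and 864 higher and 499 lower in Sertoli-like than in germ cells. After thinning they were 1454 (lower in Sertoli-like than in other cells), 1344 (lower in stromal-like and myoid-like than in germ cells), 933 (lower in Sertoli-like than in germ cells), 1055 and 574 (higher in undifferentiated than in stromal-like and myoid-like, and than in differentiating-like cells) and 168 (higher in progenitor-like than in SSC-like cells). The last count was 521 at a resolution of 1.2, and the count of genes lower there was 342 with the count split. Of the levels, 13 moved out of their interval and 280 did not. Those that changed by over 1.5 times were Ptch1 in Sertoli-like cells (24.2 CPM at the 5% limit), in progenitor-like cells (26.6 at a resolution of 0.3) and in SSC-like cells (12.1 at 1.2 and 32.7 after thinning), Foxf1 in progenitor-like cells (41.5 at 0.3) and Gli2 in differentiating-like cells (22.2 with the count split and 20.2 after thinning). A resolution of 0.3 formed no SSC-like class. The 5% limit left no germ cell subclass, so it gave none of the ratios within germ cells. It gave none for Gli1 and Hhip either, and no ratio was given wherever a class held 0 UMIs of the gene. No paired analysis was possible because there is 1 library. Depth limits Gli1, Gli2 and Hhip most, with 102 or fewer UMIs each.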
